A study of Mus musculus with 3 samples.

Results

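The genes Egr1, Vegfa, Flt3 and Pim1 have been described as transcriptional targets of CDK6, and their chromatin accessibility was examined here in leukemic mouse B-cell precursors. For each gene, every ATAC-seq peak that overlapped the annotated gene body or the 30 kb on either side of it was taken. Overlapping peaks of the 4 peak lists were merged into regions. The 4 genes, of 22028 protein-coding genes, held 114 peaks in 38 regions of the 50965 merged regions of the genome. The rule uses no measured value.

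ATAC-seq uses a transposase that cuts open DNA, so that a pile of read ends marks an accessible site. The study profiled lines of pre/pro-B-cells that express BCR-ABL(p185), obtained when bone marrow was transduced with a retrovirus. The donor mice were homozygous for wildtype Cdk6 (WT) or for the kinase-dead variant Cdk6 K43M (K43M), and each genotype gave 2 lines with 1 library each. All lines of both genotypes carried the BCR-ABL(p185) oncogene and were grown in the same medium with no treatment named in the labels, and whether a line is 1 clone was not given. The labels cover 3 libraries (WT replicate 2, K43M replicate 1 and K43M replicate 2). The fourth list carries WT in its own name and was taken as the first wildtype line, which the series' design text lists as reanalysed. It is called WT unnumbered.

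CDK6 is a cyclin-dependent kinase that pairs with D-type cyclins to drive the G1 phase of the cell cycle. It is also found on chromatin, where it works with sequence-specific transcription factors to raise or lower the transcription of single genes, in part without its kinase activity. In leukemic cells it has been linked to repression of Egr1, which encodes an immediate-early zinc finger transcription factor, and to induction of Vegfa (the angiogenic growth factor), Flt3 (a receptor tyrosine kinase of early lymphoid and myeloid progenitors) and Pim1 (a serine/threonine survival kinase). ATAC-seq shows neither CDK6 binding nor transcript levels.

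The sequences of 3 promoters and 3 distal regions are given here because the comparisons below turn on them. Each promoter sequence holds the 200 bases before the annotated start of the gene, all of them inside a region with a peak in every list. Each distal sequence holds the 201 bases around the summit with the highest −log10 q of its region. All were read from GRCm38 (mm10) on the strand of the gene, 5′ to 3′, and capitals mark matches, on either strand, to any of 14 short motifs. The positions are chr17:46032370-46032569 on the minus strand for Vegfa, chr5:147400490-147400689 on the minus strand for Flt3 and chr17:29490553-29490752 on the plus strand for Pim1.
Vegfa promoter: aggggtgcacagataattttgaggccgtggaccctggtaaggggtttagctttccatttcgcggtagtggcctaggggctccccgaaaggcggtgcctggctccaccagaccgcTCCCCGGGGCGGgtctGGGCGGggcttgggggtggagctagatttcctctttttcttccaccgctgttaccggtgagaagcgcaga
Flt3 promoter: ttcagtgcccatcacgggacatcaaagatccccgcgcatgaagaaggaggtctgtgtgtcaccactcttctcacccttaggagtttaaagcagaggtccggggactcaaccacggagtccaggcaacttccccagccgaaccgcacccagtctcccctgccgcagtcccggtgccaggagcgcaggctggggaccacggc
Pim1 promoter: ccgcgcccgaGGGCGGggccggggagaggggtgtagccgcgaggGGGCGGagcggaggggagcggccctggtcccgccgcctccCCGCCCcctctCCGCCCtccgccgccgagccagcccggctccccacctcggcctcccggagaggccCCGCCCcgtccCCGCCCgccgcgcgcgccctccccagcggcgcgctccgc
The distal regions lie at chr5:147341069-147341269 (59320 bp after the start of Flt3, in an intron and part of the neighbouring coding exon, the member region with the most negative estimated difference between genotypes), chr17:46041315-46041515 (9046 bp before Vegfa, with peaks in both K43M lists alone) and chr17:29500756-29500956 (10103 bp after the start of Pim1, beyond its end).
Flt3 intron, 59320 bp after the start: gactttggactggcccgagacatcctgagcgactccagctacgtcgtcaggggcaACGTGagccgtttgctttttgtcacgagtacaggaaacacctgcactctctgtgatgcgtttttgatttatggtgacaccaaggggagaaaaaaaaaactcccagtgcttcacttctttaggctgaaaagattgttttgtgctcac
Vegfa upstream, 9046 bp before the start: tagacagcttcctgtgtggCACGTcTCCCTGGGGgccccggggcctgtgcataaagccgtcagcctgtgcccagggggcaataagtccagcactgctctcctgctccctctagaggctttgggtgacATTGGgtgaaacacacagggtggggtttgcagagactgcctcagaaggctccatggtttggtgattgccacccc
Pim1 downstream, 10103 bp after the start: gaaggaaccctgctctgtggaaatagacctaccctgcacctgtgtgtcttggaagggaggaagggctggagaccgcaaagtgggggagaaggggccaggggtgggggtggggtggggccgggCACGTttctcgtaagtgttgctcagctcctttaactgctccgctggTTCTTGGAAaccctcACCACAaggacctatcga

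The Pim1 promoter was 86.0% GC with 32 CpG dinucleotides and held 6 matches to the SP1 motif GGGCGG (as printed, or as CCGCCC on the other strand). The Vegfa promoter was 61.5% GC with 12 CpG dinucleotides and held 2 SP1 matches and 1 match to the EBF motif CCCNNGGGA, which overlaps the first of them. The Flt3 promoter was 62.0% GC with 11 CpG dinucleotides and held none of the motifs. Among 54329 starts of protein-coding transcripts, the 200 bases before the start had a median of 56.5% GC, 38.0% held an SP1 match and 5.03% an EBF match. Besides these, the motifs were ETS (CCGGAAGT), PU.1 (GAGGAAGT), NFY (CCAAT), STAT (TTCNNNGAA), AP-1 (TGANTCA), CREB (TGACGTCA), EGR (GCGTGGGCG), NRF-1 (GCGCATGCG), E2F (GGCGGGAA), HIF (ACGTG), RUNX (TGTGGT) and the CArG box.

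Within 100 bases of the summit with the highest −log10 q, the 38 member regions held most of these motifs about as often as all 50867 regions searched. SP1 matches lay in 9 of 38 regions (23.7%, against 21.1% of all regions), NFY in 9 (23.7% against 22.5%), RUNX in 9 (23.7% against 22.5%) and HIF in 5 (13.2% against 13.7%). EBF matches, the motif of a B-lineage factor, lay in 8 regions (21.1% against 10.1%), of which 4 belonged to Vegfa. The 3 regions with a PU.1 match (7.89% against 6.9%) all belonged to Flt3. The STAT motif was held by the Vegfa region 13592 bp before the start and by the printed Pim1 distal region (5.26% against 6.79%), and the AP-1 motif by 2 regions (5.26% against 7.6%). The single CArG match, the motif of serum response factor, lay in the promoter region of Egr1, where 0.812% of all regions held one. It lay near the summit in an exon of Egr1, 1309 bp after the start, and not upstream of the gene. No member region held an ETS, CREB, EGR, NRF-1 or E2F match in this window, and between 0.326% (EGR) and 2.23% (ETS) of all regions did. The motif matches describe the letters and are not measured binding.

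Across the lists, WT unnumbered held 33038 peaks, WT replicate 2 held 34248, K43M replicate 1 held 39038 and K43M replicate 2 held 34752. Read totals were unknown, and depth was seen only through values of the peak caller, with a genome background between 48.4 (K43M replicate 2) and 65.3 (WT unnumbered) read ends per 10 kb. Promoter peaks checked the labelled cell type. Of 8 markers of B-cell precursors, 6 had one in all lists, and Cd79b and Rag1 lacked one in K43M replicate 2. Of 12 markers of T cells, myeloid cells, erythroid cells and hepatocytes, none had a promoter peak in all lists and 8 had none at all. Those with one in some lists included the T-cell gene Cd3d in WT replicate 2 and the myeloid genes Lyz2 in both WT lists and Cebpe in 3 lists.

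All 4 genes had an open promoter in every list. A promoter peak here overlaps the stretch from 2000 bp before to 200 bp after a transcript start. Of all protein-coding genes, 47.5% had one in all 4 lists (10460 of 22028). Of the 38 regions, 19 had a peak in all lists, where 41.2% of all regions of the genome did. Peaks in both WT lists and neither K43M list were found in 2 regions (background 4.51%), and peaks in both K43M lists and neither WT list in 3 (background 7.64%). A further 9 regions had a peak in 1 list, of which 5 lay in K43M replicate 1, the longest list, and 5 had peaks in other combinations of lists. By position, 5 regions overlapped a promoter of the 4 genes themselves (4 of them open in all lists), 5 a promoter of another gene (4 in all lists), and 28 were distal (11 in all lists).

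Regions with peaks in both lists of 1 genotype and none of the other, all of them distal, ranked lower by −log10 q than the own promoter regions open in all lists. The fold enrichment is the summit pileup divided by the background of its own library per 200 bp, with 1 added to each before the division. It ranged from 2.5 to 5.78 in these 5 regions. That is between percentiles 1.58 and 49.7 of all peaks of their own list, ranked by −log10 q. The 11 distal regions open in all lists overlapped them widely, from 3.5 to 9.76 (median 5.37 against 4.44), between percentiles 3.86 and 92.8. The 4 own promoter regions open in all lists ranged from 5.67 to 10.9, between percentiles 63.2 and 95.9. Their fold enrichment thus overlapped slightly with that of the 5 regions, while the percentiles did not. A missing peak means that no peak was called there, not that no reads were found. The counts also moved with single libraries. Without WT unnumbered, the WT list alone held 5 regions without a K43M peak, without WT replicate 2 it held 4, and without K43M replicate 2 the number of K43M-only regions was 8.

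**Figure D1:**
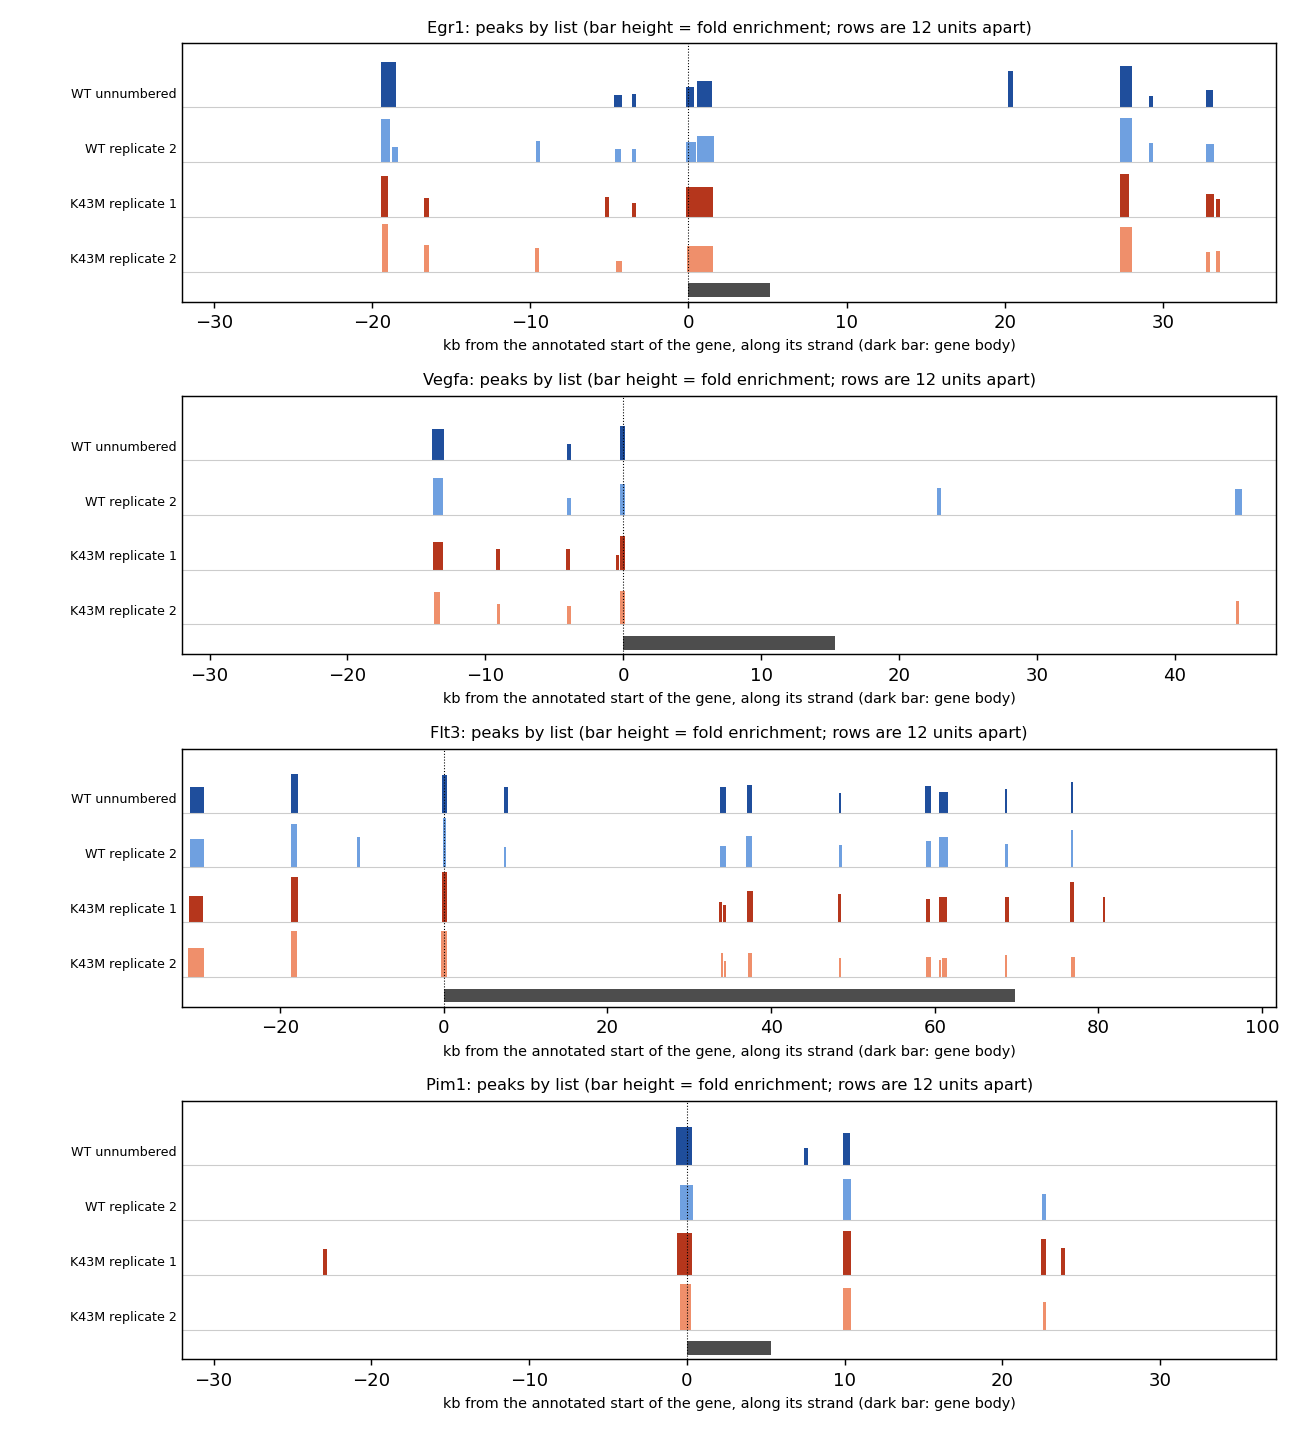
Peaks around Egr1, Vegfa, Flt3 and Pim1 by distance in kb from the annotated start along the strand of the gene, with 1 row per list and bar height giving the fold enrichment. The promoter peak at position 0 stands in all 4 rows for each gene, and most bars that stand in 1 or 2 rows are low.

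Between genotypes, no region of the 4 genes that was open in every list passed the threshold in limma. The other member regions were not tested, because the fit needs a value in every list. Over the 21012 regions open in every list, log2 fold enrichment was compared by limma after each list was centred on its median over these regions. With 2 lines per genotype the p-values rest on the spread between these lines, which limma draws toward the spread over all regions tested. Differences between lines and between genotypes cannot be told apart beyond that spread. None of the 19 member regions passed an adjusted p of 0.05 in limma. On fold enrichment, neither did any region of the genome (background 0%), although 2610 regions (12.4%) had an unadjusted p under 0.05, none of them a member region, and the smallest adjusted p in limma was 0.127. In the members, the estimated difference (K43M minus WT) ran from −0.28 to 0.29 on the log2 scale, with adjusted p from 0.475 to 0.986 in limma. The median was 0.04, against 0.00 for all regions, and the median size regardless of sign was 0.15 for both.

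The value of a region in a list is that of its strongest peak there, and the summits of the 4 lists lay within 422 bp of each other in all 19 regions but the Egr1 promoter (1245 bp) and the Pan3 promoter beside Flt3 (1047 bp). Before any test, the centred values of both K43M lists lay above those of both WT lists in 5 of the 19 regions (21.3% of all 21012 regions did so) and below them in 1 (21.0% did so), and the genotypes overlapped in 13. The 5 were the promoter regions of Egr1 and Pim1 and 3 distal regions, 1 each of Egr1, Vegfa and Pim1. The 1 below was the printed Flt3 intron region. These shares lie near or under those of the whole genome.

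**Figure D2:**
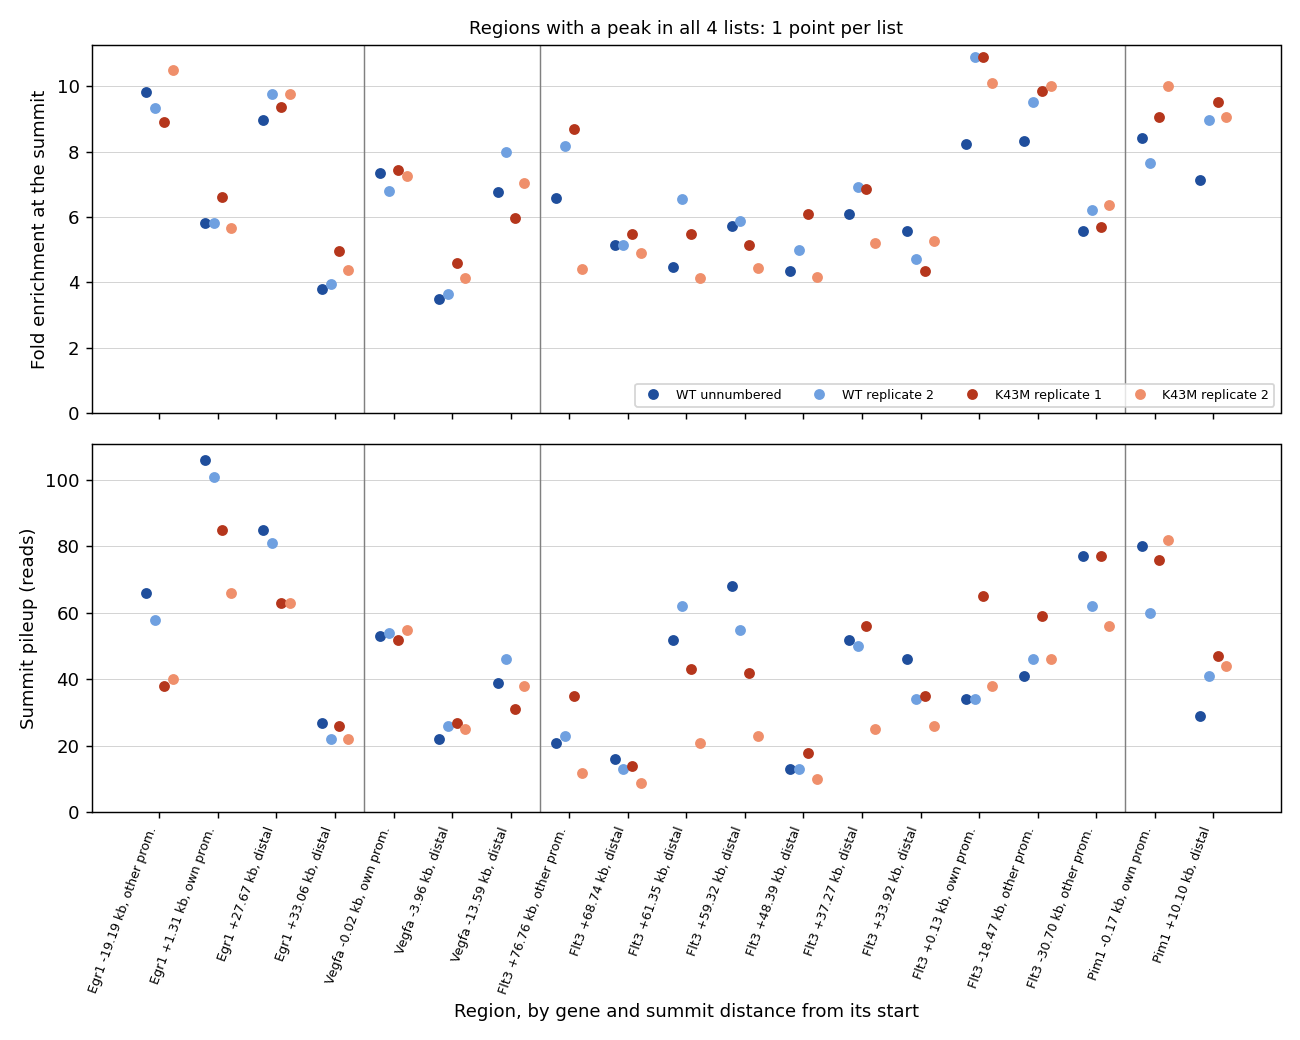
Fold enrichment (upper panel) and recovered summit pileup in reads (lower panel) of the 19 member regions open in every list, 1 point per list, labelled by gene and summit distance in kb. WT (blue) and K43M (red) points interleave in most regions, while the pileups of the Egr1 promoter are 106 and 101 in WT and 85 and 66 in K43M.

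Egr1 (chromosome 18, 34859823 to 34864984, plus strand) encodes the zinc finger transcription factor named early growth response 1 and is the member linked to repression by CDK6. Its window held 12 regions, of which 4 had a peak in all lists. The promoter region (34859686 to 34861421) covered the start and the first part of the gene, and its summit with the highest −log10 q lay 1309 bp after the start. Its fold enrichment was 5.82 (WT unnumbered), 5.82 (WT replicate 2), 6.60 (K43M replicate 1) and 5.67 (K43M replicate 2). The values overlapped between genotypes as deposited and separated only after centring, by a narrow margin. The estimated difference was 0.07 ± 0.15 (SE, 2 lists per genotype, adjusted p = 0.908 in limma).

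The fold enrichments of the Egr1 promoter are the highest of the region in each list, and their summits lay 1309, 1318, 1011 and 73 bp after the start in the same order, so they do not all describe 1 position. The highest summit pileup of the region, without the division by background, was 106 reads (WT unnumbered), 101 (WT replicate 2), 85 (K43M replicate 1) and 66 (K43M replicate 2). Near the start itself, where the summit of K43M replicate 2 lay, the WT lists had peaks with summits at 58 and 57 bp, pileups of 92 and 88 reads and fold enrichment of 4.46 and 4.48. The highest summit pileup of the region, taken at these differing positions, was higher in both WT lists. How many of all regions separate this way was not counted. Its centred log2 difference was −0.36 ± 0.18 (adjusted p = 0.355 in limma), opposite in sign to that of the highest fold enrichment. The background recovered at the Egr1 regions moved the same way, with medians of 374, 318, 257 and 245 read ends per 10 kb in the same order of lists. So did the background of chromosome 18 as a whole: over 662 regions its log2 level against all autosomes was 0.24 and 0.28 in the WT lists and −0.16 and −0.20 in the K43M lists. The part of this chromosome-wide difference in the Egr1 pileups was not tested, and lines and genotype cannot be told apart here.

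The called peaks of the Egr1 promoter also differed in number. It was split into 2 called peaks in both WT lists and was 1 peak in both K43M lists, a feature picked out after its values were seen. The gap was 148 bp in WT unnumbered (386 to 533 bp after the start) and 90 bp in WT replicate 2 (484 to 573 bp after the start), and the single K43M peaks were 1693 and 1682 bp long. The gaps overlapped between the WT lists. Of all regions with a peak in every list, 0.538% were split in both WT lists and whole in both K43M lists, and 0.681% the reverse. Bases under peaks in the Egr1 promoter region were similar, at 1491 and 1646 in WT and 1693 and 1682 in K43M.

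Around Egr1, 2 regions had a higher fold enrichment than its own promoter in every list. At the promoter of Reep2, a neighbour 19186 bp before the start, it was 9.82 and 9.34 in WT and 8.90 and 10.5 in K43M. These overlapped between genotypes (0.01 ± 0.17, adjusted p = 0.986 in limma). The pileups, not adjusted for depth, were 66 and 58 in WT and 38 and 40 in K43M (centred difference −0.55 ± 0.20, adjusted p = 0.220 in limma). A distal region 27670 bp after the start, 74.1% GC, had 8.98 and 9.76 in WT and 9.36 and 9.76 in K43M, with pileups of 85 and 81 reads in WT and 63 and 63 in K43M. The distal region 33061 bp after the start was lower in every list, at 3.79 and 3.95 in WT and 4.95 and 4.39 in K43M (0.27 ± 0.15, adjusted p = 0.513 in limma), and the K43M lists lay above the WT lists.

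The remaining Egr1 regions were found in some lists. Both K43M lists had peaks in an intron of Reep2 16520 bp before the start (4.09 and 5.78) and 33448 bp after it (4.05 and 4.55). Both WT lists had one 29243 bp after the start (2.50 and 4.22). Between 3469 and 9534 bp before the start lay 4 low regions with fold enrichment from 2.42 to 5.26, none with a peak in all lists and none with peaks in 1 genotype alone in both of its lists. A region 20371 bp after the start had a peak in WT unnumbered alone, at 7.98.

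Bases under peaks in the 65162 bp Egr1 window were 5078 (WT unnumbered), 4856 (WT replicate 2), 4227 (K43M replicate 1) and 4082 (K43M replicate 2). The difference of the means, −812.5, exceeded the gap between lines of 1 genotype (222 in WT, 145 in K43M). The exact two-sided permutation test gave p = 0.333, the smallest that 2 against 2 lists allow, and 1 after adjustment over the 4 genes. With 10 kb on both sides in place of 30 kb, the difference was −232.5. How many other gene windows separate by genotype was not counted.

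Vegfa (chromosome 17, 46016993 to 46032369, minus strand) encodes vascular endothelial growth factor A, which drives the growth of blood vessels. Its body held no peak away from the start. The promoter region (46032208 to 46032617) had its summit 23 bp before the start. Fold enrichment was 7.36 (WT unnumbered), 6.81 (WT replicate 2), 7.44 (K43M replicate 1) and 7.24 (K43M replicate 2), from pileups of 53, 54, 52 and 55 reads. The genotypes overlapped, and the difference was 0.05 ± 0.15 (adjusted p = 0.934 in limma). A second, weak promoter peak 509 bp before the start was found in K43M replicate 1 alone, at 3.30.

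Upstream of Vegfa, 2 distal regions had peaks in all lists. The one 3955 bp before the start had 3.50 (WT unnumbered), 3.66 (WT replicate 2), 4.59 (K43M replicate 1) and 4.15 (K43M replicate 2). Both K43M lists lay above both WT lists, with a difference of 0.29 ± 0.14, the highest of the members (adjusted p = 0.475 in limma). The one 13592 bp before the start had 6.78, 7.99, 5.97 and 7.04, which overlapped (−0.18 ± 0.18, adjusted p = 0.762 in limma).

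The printed Vegfa region 9046 bp before the start had peaks in both K43M lists alone, at 4.51 (22 reads) and 4.48 (23 reads), at percentiles 30.7 and 33.2 of their lists. It held an NFY, a HIF and an EBF match. Beyond the end of the gene, 2 regions were found, in WT replicate 2 and K43M replicate 2 (5.62 and 5.08) and in WT replicate 2 alone (5.82). Bases under peaks in the 75377 bp window were 1382, 2099, 1804 and 1466 in the same order of lists. The difference of −105.5 was smaller than the spread within either genotype (exact permutation p = 1), and it changed sign to 253.0 without WT replicate 2 and to 63.5 without K43M replicate 2.

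Flt3 (chromosome 5, 147330741 to 147400489, minus strand) encodes the receptor of FLT3 ligand, which marks early lymphoid and myeloid progenitors. Its locus had the most regions open in every list, 10 of 13. Along the gene body away from the promoter, 6 regions had a peak in all lists and 1 in both WT lists alone. The promoter region (147400064 to 147400785) had its summit 128 bp after the start.

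Fold enrichment at the Flt3 promoter was 8.22 (WT unnumbered), 10.9 (WT replicate 2), 10.9 (K43M replicate 1) and 10.1 (K43M replicate 2). WT unnumbered was the lowest and the other lists were close together. The difference was 0.15 ± 0.18 (adjusted p = 0.816 in limma), and it was −0.06 without WT unnumbered and 0.35 without WT replicate 2. The pileups were 34 and 34 reads in WT and 65 and 38 in K43M (0.64 ± 0.22, adjusted p = 0.201 in limma), so the higher K43M value came mainly from K43M replicate 1. On chromosome 5 as a whole, that list also had the highest background, at 0.38 on the log2 scale against all autosomes, where the other lists had 0.17 (WT unnumbered), −0.03 (WT replicate 2) and 0.10 (K43M replicate 2). Its part in the promoter pileup was not tested.

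Within the Flt3 body, the printed intron region 59320 bp after the start had 5.74 (WT unnumbered), 5.88 (WT replicate 2), 5.13 (K43M replicate 1) and 4.43 (K43M replicate 2), from pileups of 68, 55, 42 and 23 reads. Both K43M lists lay below both WT lists, and the difference was −0.28 ± 0.15 for fold enrichment (adjusted p = 0.490) and −0.85 ± 0.23 for the pileup (adjusted p = 0.126), both in limma. The adjacent region 61348 bp after the start had pileups of 52 and 62 in WT and 43 and 21 in K43M (−0.79 ± 0.28, adjusted p = 0.215 in limma), while its fold enrichment of 4.47, 6.56, 5.49 and 4.15 overlapped.

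K43M replicate 2 held most of the lowest values of the Flt3 body. Its pileup was the lowest of the 4 lists in 6 of the 6 body regions and its fold enrichment in 5 of them, a pattern noticed after the values were seen. Of all 21012 regions, 51.3% had their lowest pileup and 33.9% their lowest fold enrichment in this list. At the remaining body regions the genotypes overlapped in fold enrichment, with 5.57, 4.73, 4.35 and 5.27 in the order of the lists above at 33922 bp after the start, 4.35, 5.0, 6.09 and 4.17 at 48391 bp, and 5.15, 5.15, 5.47 and 4.90 at 68741 bp. At the region 37270 bp after the start, over an exon, pileups were 52 and 50 in WT, 56 in K43M replicate 1 and 25 in K43M replicate 2. This library had a median pileup of 31 over all regions open in every list, against 39 in WT unnumbered, 35 in WT replicate 2 and 38 in K43M replicate 1, and the lowest background at the Flt3 regions (192 read ends per 10 kb, against 258 to 303). The part of this depth in the Flt3 values was not tested.

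The Flt3 intron region 7624 bp after the start had peaks in both WT lists alone, at 5.59 (17 reads) and 4.39 (9 reads), at percentiles 28.7 and 4.76 of their lists. Neighbouring promoters were open in every list, with 6.59, 8.16, 8.70 and 4.42 at Urad, 8.33, 9.51, 9.84 and 10.0 at D5Ertd605e, and 5.57, 6.21, 5.70 and 6.36 at Pan3. At D5Ertd605e both K43M values were higher than both WT values as deposited and overlapped after centring, and the other neighbours overlapped between genotypes. The last 2 Flt3 regions had a peak in 1 list each, 10315 bp before the start in WT replicate 2 (6.72) and 80629 bp after it in K43M replicate 1 (5.58). Bases under peaks in the 129749 bp window were 6486, 6261, 6331 and 5277, a difference of −569.5 (exact permutation p = 0.667) that fell mostly on K43M replicate 2 and was −42.5 without that list.

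**Figure D3:**
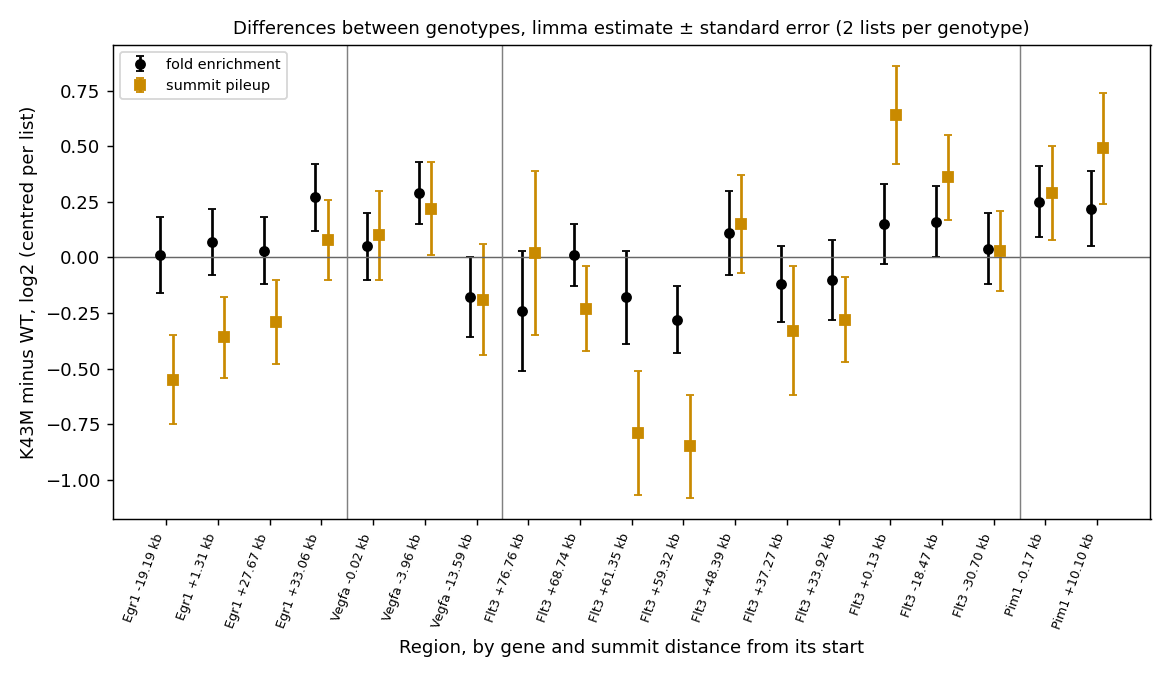
Estimated K43M minus WT difference on the centred log2 scale for the 19 regions, with the limma standard error as bars, for fold enrichment (black) and summit pileup (orange). All black points lie between −0.28 and 0.29, and the lowest orange points, −0.85 and −0.79, belong to neighbouring regions in the Flt3 body.

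Pim1 (chromosome 17, 29490753 to 29496112, plus strand) encodes a serine/threonine kinase that promotes survival. It had the fewest regions, 6, and 2 of them had a peak in all lists. The promoter region (29490078 to 29491137), which also overlaps a promoter of the non-coding gene Gm26885, had its summit 167 bp before the start, in the GC-rich sequence printed above. Fold enrichment was 8.42 (WT unnumbered), 7.66 (WT replicate 2), 9.06 (K43M replicate 1) and 10.0 (K43M replicate 2). Both K43M lists were higher than both WT lists (0.25 ± 0.16, adjusted p = 0.599 in limma), while the pileups of 80, 60, 76 and 82 reads overlapped. The estimate was 0.12 without K43M replicate 2 and 0.38 without K43M replicate 1. In K43M replicate 2 this peak reached percentile 95.9 of its list.

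Beyond the end of Pim1, the printed region 10103 bp after the start had 7.14 (WT unnumbered), 8.97 (WT replicate 2), 9.52 (K43M replicate 1) and 9.07 (K43M replicate 2), from pileups of 29, 41, 47 and 44 reads. The K43M lists were higher, by a narrow margin over WT replicate 2, and the difference was 0.22 ± 0.17 (adjusted p = 0.677 in limma). It was 0.05 without WT unnumbered and 0.39 without WT replicate 2. The sequence held 1 STAT, 1 HIF and 1 RUNX match. A region 22615 bp after the start had peaks in all lists but WT unnumbered (5.79, 7.87 and 6.05), and 3 weaker regions, 1 of them at another promoter of Gm26885, were found in 1 list each (3.82 to 5.95). Bases under peaks in the 65360 bp window were 1667, 1530, 2217 and 1509. The difference of 264.5 rested on K43M replicate 1 (exact permutation p = 1) and was −89.5 without that list.

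Recovered pileups and fold enrichment gave different pictures for some of these regions. On pileups, 4 of the 19 member regions had an unadjusted p under 0.05 in limma, where 17.7% of all regions did. The lowest adjusted p among the members was 0.126 in limma, and 210 of all regions (0.999%) passed 0.05 (139 higher and 71 lower in K43M). The 4 were the Reep2 promoter beside Egr1, 2 Flt3 body regions (lower in K43M by estimate) and the Flt3 promoter (higher by estimate).

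**Figure D4:**
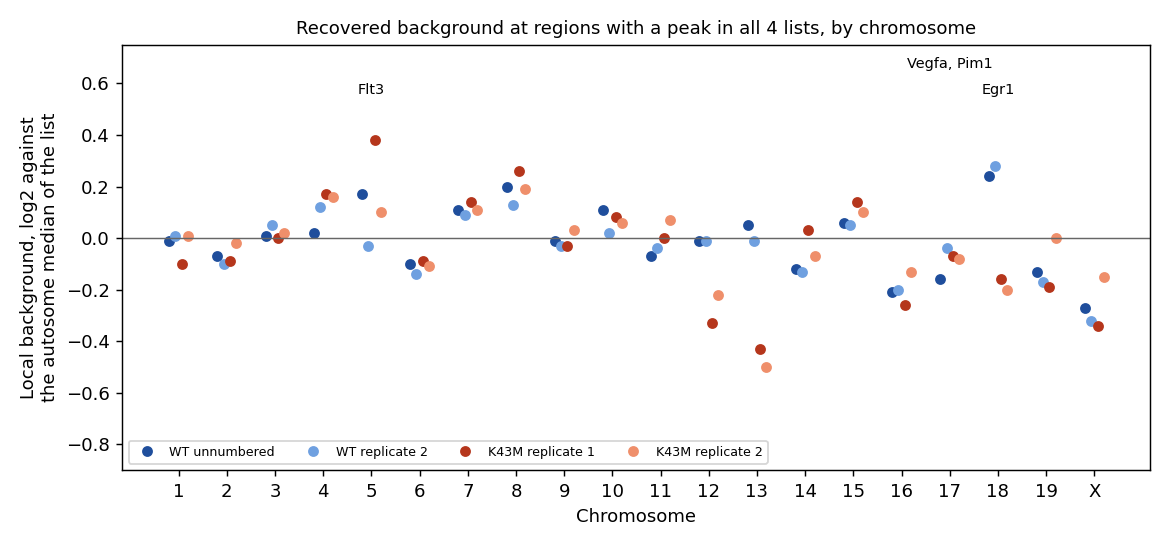
Recovered local background at regions with a peak in every list, by chromosome and list, on the log2 scale against the autosome median of each list. On chromosome 18, which carries Egr1, the WT lists are at 0.24 and 0.28 and the K43M lists at −0.16 and −0.20, and on chromosome 17, which carries Vegfa and Pim1, all lists lie between −0.16 and −0.04.

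The relatives of the 4 genes divided by family. A promoter peak in all lists was found for 4 of 5 genes of the EGR group, 3 of 9 of the VEGF group, 2 of 7 of the FLT3 group and 2 of 2 PIM kinases. Together with 6 further CDK6-linked genes and 7 genes of factors acting with CDK6, 24 of 36 had one in all lists and 9 in none. Of all protein-coding genes, 47.5% had one in all lists. The kinases Pim2 and Pim3 were open in every list, with Pim2 between 12.5 and 14.4. In the EGR family and its NAB co-repressors, 4 of 5 genes were open in all lists and Egr4 had a peak in K43M replicate 2 alone (4.33). Of the VEGF group, the ligand genes Vegfb, Vegfc and Pgf were open in all lists, and the ligand gene Vegfd and the receptor genes Flt1, Kdr, Flt4, Nrp1 and Nrp2 had no promoter peak in any list.

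Of the FLT3 ligand and the related receptors, the ligand genes Flt3l and Csf1 were open in every list, while Kit, Csf1r and Pdgfrb had no promoter peak. Pdgfra had one in all lists but WT replicate 2 (5.99, 7.22 and 5.70), and Kitl had one in K43M replicate 1 alone (4.25). Further genes linked to CDK6 at chromatin (Cdkn2a, Prmt5, Ppm1d, Mdm4, Aurka and Akt1) were open in all lists, 6 of 6. The genes of factors that act with it (Jun, Stat3, Runx1, Nfya, Nfyb, Nfyc and Sp1) were also open in all lists, 7 of 7. Both sets are short and were picked by name, and 47.5% of all protein-coding genes had a promoter peak in all lists.

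The promoters most like each member in their 4 centred log2 values, by Euclidean distance among 9152 promoter regions, were those of Parp8 (0.0691), Smtn (0.0977) and Agrn (0.0986) for Egr1 and of Klf16 (0.0324), Apold1 (0.075) and Wdr63 (0.0858) for Vegfa. For Flt3 they were Clec12a (0.0962), Usp30 (0.101) and Ahr (0.106), and for Pim1 Bod1l (0.0739), Nup153 (0.0829) and Ak5 (0.0949). With 4 lists, this likeness is a description.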

How the data were processed

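Accessibility had been measured by ATAC-seq in 4 lines, and 4 peak lists were used. Per the labels and methods, the authors trimmed reads (Trimmomatic 0.36), mapped them to mm10 (BWA 0.7.15), removed blacklisted and ambiguous mappings (bedtools, SAMtools 1.3.1) and called peaks per library with MACS2 2.1.0, with no control named. The deposited values were fold enrichment (a ratio), −log10 p, −log10 q and a score made from q. The score was only checked. Fold enrichment divides by background that neighbouring peaks can raise.

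Here peaks sharing 1 bp were merged across lists. Pileups (reads extended to 200 bp) and the highest background per 10 kb considered by the caller were recovered from fold enrichment and −log10 p, for 100% of peaks. A region took its strongest peak per list. limma 3.58.1 (R 4.3.3) compared log2 fold enrichment over all regions open in every list, with Benjamini-Hochberg adjustment. The pileup alternative used log2(pileup + 1). Exact permutation tests compared bases under peaks. Other scripts used Python 3.11.15. Scripts were tested on simulated data. Promoters came from the mouse GENCODE release M21 of the same build. All 4 genes and all their regions are named. Neighbours are genes with a promoter in a member region, relatives are named where open in some lists, and 3 genes most alike are named per promoter. Relatives open in all lists or in none are also named as examples. Members and lists were chosen with earlier results of these data known. Alternatives covered peak threshold, list length, overlap, window, scaling, measure and each library left out. One marker gene and 1 sequence are not reported here.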

Additional observations from a re-analysis of the deposited data

How the results depend on the processing

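Of 153 values under alternative settings, 136 stayed as in the main setting by the rule for their kind. Counts had to stay near the main count, and differences in bases under peaks had to keep their sign. The limma estimates of 8 regions had to keep their sign and their side of the threshold. With all lists kept, no setting put a tested member region past 0.05 in limma. Regions in both WT lists alone numbered 1 with stricter peaks (−log10 q of at least 5) and 1 with 10 kb on both sides, and from 3 to 5 with 1 list left out. K43M-only regions numbered 1 with 10 kb and from 3 to 8 with 1 list left out. Regions open in all lists numbered 38 with 100 kb on both sides, a wider window. Differences in bases under peaks changed sign with 10 kb for Vegfa (222.5) and Pim1 (−139.5). With 1 list left out they ranged from −464.0 to 253.0 for Vegfa (63.5 without K43M replicate 2) and from −89.5 to 618.5 for Pim1. Over all regions, limma calls numbered 210 on pileups and from 0 to 30 with 1 list left out. At the Egr1 promoter the pileup difference was −0.36, and at the Flt3 promoter the fold enrichment difference ranged from −0.06 to 0.35 with 1 list left out. Apart from the wider and narrower windows, the cause of these changes was not tested. Where 1 list was left out, the lone list of a genotype was assumed to vary like the other genotype. No paired analysis was possible because the genotypes share replicate number 2 alone and WT unnumbered carries no number. Read totals were unknown, so that a peak missing from a list could not be told from low depth.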
